A study of Mus musculus with 11 samples.

Results

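The genes described are those of the glial intermediate filaments: Gfap, Vim, Nes and Synm, which encode glial fibrillary acidic protein, vimentin, nestin and synemin. They were taken by name from the deposited expression table, and all 4 were found among its 20888 rows. Their levels were compared across 3 genotypes of C57BL/6 mice, in RNA from the lumbar spinal cord at 10 months of age. There were 5 mice with both MFN2-R94Q and MFN1 (MFN2-R94Q:MFN1), 3 mice with MFN2-R94Q alone, and 3 nontransgenic mice (nTg). MFN1 and MFN2 are the mitofusins, which fuse the outer membranes of mitochondria, and the series title places MFN2-R94Q in a mouse model of the axonal neuropathy CMT2A. The labels do not give the promoter that drives either transgene, the species of the transgenes, the line, or the sex of the mice. The measure was RPKM, reads scaled by gene length and by the mapped reads of the library, from stranded poly(A) libraries, 1 per mouse.

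Intermediate filaments are rope-like polymers that give a cell its mechanical strength. In mature astrocytes GFAP is the main subunit, and vimentin forms filaments with it. Nestin and synemin are large proteins that join such filaments rather than forming them alone. Nestin marks neural progenitors, and vimentin and nestin are abundant in radial glia. A rise of GFAP and vimentin is the standard mark of reactive astrocytes, in which nestin and synemin can also return. Vimentin is not particular to astrocytes: endothelial cells, fibroblasts, ependymal cells and microglia make it too, and nestin is also made in vessel walls.

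The stretch upstream of each gene's RefSeq start is shown because STAT factors, which act downstream of cytokines of the interleukin-6 family, are known activators of Gfap, and because the 4 genes differed in the motifs found. The sequences are from RefSeq (GRCm38.p6), run 5′ to 3′ on the gene's own strand, and cover positions -250 to -31 from that start. Capitals mark matches to the 6 motifs searched on both strands. These were the STAT pattern with a spacer of 3 (TTCNNNGAA) or 4 (TTCNNNNGAA), the AP-1 pattern (TGANTCA), the CCAAT box, the GC box (GGGCGG) and the TATA box (TATAAA).
Gfap (chr11:102897231-102897450, minus strand): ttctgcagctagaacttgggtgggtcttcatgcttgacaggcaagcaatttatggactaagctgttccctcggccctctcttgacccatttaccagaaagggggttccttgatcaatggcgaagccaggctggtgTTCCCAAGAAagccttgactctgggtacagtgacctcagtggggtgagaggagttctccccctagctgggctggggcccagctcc
Nes (chr3:87970843-87971062, plus strand): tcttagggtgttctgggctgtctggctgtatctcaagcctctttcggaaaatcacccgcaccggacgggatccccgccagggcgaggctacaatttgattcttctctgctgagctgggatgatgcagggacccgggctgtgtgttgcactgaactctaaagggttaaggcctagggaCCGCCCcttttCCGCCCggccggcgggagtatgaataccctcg
Synm (chr7:67759773-67759992, minus strand): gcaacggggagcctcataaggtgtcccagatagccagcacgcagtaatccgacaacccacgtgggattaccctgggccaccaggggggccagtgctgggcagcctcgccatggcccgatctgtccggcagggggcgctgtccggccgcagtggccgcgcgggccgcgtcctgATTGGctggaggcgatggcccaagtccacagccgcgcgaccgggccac
Among the 4 genes, the Gfap stretch alone held a STAT pattern, TTCCCAAGAA at -115 to -106. This stretch lies in no annotated exon but inside the annotated span of Gfap, since a longer transcript starts farther upstream. The Gfap match is to the pattern with a spacer of 4, which occurred in 5.22% of the 32851 RefSeq promoter stretches of this length. The pattern with a spacer of 3, which none of the 4 genes held, occurred in 6.27% of those stretches. The share of stretches that held either STAT pattern was not computed. Nes held 2 GC boxes, at -73 to -68 and -62 to -57, and 28.5% of the stretches held at least 1. Synm held a CCAAT box on its reverse strand at -78 to -74. The Vim stretch (chr2:13574061-13574280, plus strand), which lies in an annotated exon of a longer transcript and is not printed, held 2 CCAAT boxes, at -196 to -192 and -94 to -90. A CCAAT box occurred in 31% of the stretches. No match to TTCNNNGAA, TGANTCA or TATAAA was found in these windows. A match of letters is a description and does not show that a factor binds there, nor which STAT factor would.

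The depth per library, recovered from the steps of the lowest values, ranged from 36.3 to 71.8 M reads in MFN2-R94Q:MFN1, 30.5 to 52.3 M in MFN2-R94Q and 34.5 to 53.8 M in nTg. Markers of the dissected region were present in every group. The 9 genes of lumbar cord identity summed to 212.2 to 220.7 RPKM in MFN2-R94Q:MFN1, 205.7 to 218.7 RPKM in MFN2-R94Q and 221.8 to 226.7 RPKM in nTg, so both transgenic groups lay below nTg. Of these 9, 4 fell and none rose in MFN2-R94Q against nTg by limma (6 were lower and 0 higher at an unadjusted p under 0.05), or 1 to 2 fell without MFN2-R94Q replicate 2 or any 1 nTg library. None passed in MFN2-R94Q:MFN1 against MFN2-R94Q (1 was higher and 0 lower at an unadjusted p under 0.05) or against nTg (0 were higher and 4 lower), where 1 fell without MFN2-R94Q replicate 2. Over all 14347 genes tested, 10.4%, 3.33% and 0.223% fell and 7.5%, 9.55% and 2.09% rose in these 3 comparisons, in the same order. The part of the lumbar marker difference in the results was not tested. Mouse Mfn1 lay between 24.2 and 26.6 RPKM and Mfn2 between 43.4 and 47.7 RPKM over the 11 libraries, and neither passed a test (smallest limma adjusted p = 0.132 for Mfn1), so these rows do not check the labels. On the first principal component (39.6% of the variance) MFN2-R94Q replicate 2 had a score of 27.0, against 6.20 and 8.05 for the other MFN2-R94Q libraries and -8.23 to -2.48 for the rest. MFN2-R94Q:MFN1 replicate 3 stood out for meningeal markers, whose summed level was 36.6 RPKM in it, against 24.3 to 26.4 RPKM in the other libraries. It also stood out for Schwann cell and root markers. Their mean log2 difference from the nTg mean was 0.84 in it, against -0.08 to 0.16 in the other libraries. Their summed level, 151.4 RPKM, was near the 150.8 RPKM of MFN2-R94Q:MFN1 replicate 4. For the 4 genes, a call or sign that changes without MFN2-R94Q replicate 2 is given with and without it, and no call of theirs changed without MFN2-R94Q:MFN1 replicate 3.

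Gfap and Vim formed a graded series: both were highest in MFN2-R94Q:MFN1, intermediate in MFN2-R94Q and lowest in nTg, with no overlap between any 2 groups. Nes followed the same order of means but overlapped, and Synm did not follow it. Of the 4 genes, 2 rose and none fell in each of the 3 comparisons by limma. At an unadjusted p under 0.05, 2 were higher in MFN2-R94Q against nTg and 3 in each comparison of MFN2-R94Q:MFN1, and 0 were lower. Among all 14347 genes tested, 7.5% rose and 10.4% fell in MFN2-R94Q against nTg, 9.55% rose and 3.33% fell in MFN2-R94Q:MFN1 against MFN2-R94Q, and 2.09% rose and 0.223% fell in MFN2-R94Q:MFN1 against nTg. These shares are also the background for the counts of each gene list below. Groups that did not overlap, with the first higher, were found for 16.6%, 13.1% and 9.03% of genes in the same comparisons. The tests were limma fits of log2(RPKM + 0.5) over all genes, with Benjamini-Hochberg adjustment and a threshold of 0.05. The 3 comparisons share libraries, so they are not independent of each other.

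**Figure D1:**
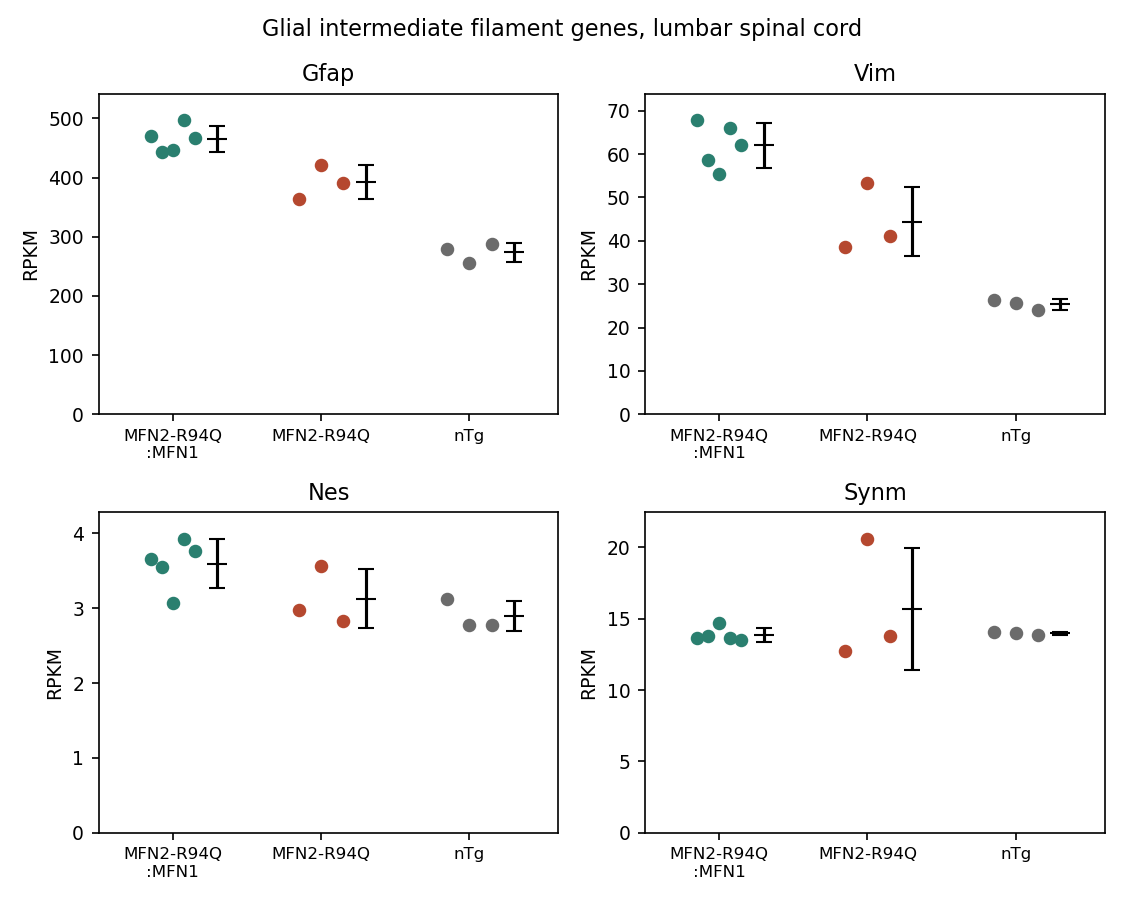
RPKM of Gfap, Vim, Nes and Synm in each of the 11 libraries, by genotype, with the group mean and SD beside the points; each panel has its own linear axis from 0. The 3 groups do not overlap for Gfap and Vim, and 1 MFN2-R94Q library stands at 20.6 RPKM for Synm.

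Gfap (chromosome 11, 102887336 to 102900912, minus strand, GRCm38) was among the most abundant transcripts of the tissue. Its mean RPKM ranked 41st in MFN2-R94Q:MFN1, 53rd in MFN2-R94Q and 100th in nTg among the 20888 rows. Gfap was at 470.8, 443.2, 447.1, 496.9 and 467.4 RPKM in MFN2-R94Q:MFN1 replicates 1 to 5, at 364.1, 421.6 and 390.3 RPKM in MFN2-R94Q replicates 1 to 3, and at 278.5, 256.1 and 287.1 RPKM in nTg replicates 1 to 3. All 5 MFN2-R94Q:MFN1 libraries lay above all MFN2-R94Q libraries, and these above all nTg libraries. The means were 465 ± 21.6 RPKM (SD, n = 5) in MFN2-R94Q:MFN1, 392 ± 28.8 RPKM (n = 3) in MFN2-R94Q and 274 ± 16.0 RPKM (n = 3) in nTg. In bulk RNA, more astrocytes and more RNA per astrocyte cannot be told apart.

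Gfap rose 1.43-fold in MFN2-R94Q against nTg (95% interval 1.31 to 1.56; log2 0.52, SE 0.059; limma adjusted p = 0.00102). It rose a further 1.19-fold in MFN2-R94Q:MFN1 against MFN2-R94Q (1.10 to 1.28; log2 0.25, SE 0.053; limma adjusted p = 0.0117). Against nTg the rise in MFN2-R94Q:MFN1 was 1.70-fold (1.57 to 1.84; log2 0.76, SE 0.053; limma adjusted p = 4.4e-06). That p was the 7th smallest of all genes tested. Without MFN2-R94Q replicate 2, the highest of its group, the log2 changes were 0.46 in MFN2-R94Q against nTg and 0.30 in MFN2-R94Q:MFN1 against MFN2-R94Q, and both passed.

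Vim (chromosome 2, 13573927 to 13582826, plus strand) was lower in level than Gfap, with larger fold changes in each comparison. It was at 67.8, 58.6, 55.3, 66.1 and 62.2 RPKM in MFN2-R94Q:MFN1 replicates 1 to 5, at 38.6, 53.4 and 41.2 RPKM in MFN2-R94Q replicates 1 to 3, and at 26.4, 25.8 and 24.0 RPKM in nTg replicates 1 to 3. The groups did not overlap, and the nearest values of neighbouring groups were 55.3 RPKM in MFN2-R94Q:MFN1 replicate 3 and 53.4 RPKM in MFN2-R94Q replicate 2. Group means were 62.0 ± 5.17 RPKM (SD, n = 5) in MFN2-R94Q:MFN1, 44.4 ± 7.93 RPKM (n = 3) in MFN2-R94Q and 25.4 ± 1.23 RPKM (n = 3) in nTg, so the coefficient of variation was largest in MFN2-R94Q. By rank of mean RPKM, Vim stood 864th, 1264th and 2475th in MFN2-R94Q:MFN1, MFN2-R94Q and nTg.

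Vim rose 1.72-fold in MFN2-R94Q against nTg (95% interval 1.47 to 2.00; log2 0.78, SE 0.102; limma adjusted p = 0.00213). It rose 1.40-fold in MFN2-R94Q:MFN1 against MFN2-R94Q (1.22 to 1.61; log2 0.49, SE 0.091; limma adjusted p = 0.00687). The rise in MFN2-R94Q:MFN1 against nTg was 2.41-fold (2.10 to 2.76; log2 1.27, SE 0.091; limma adjusted p = 4.4e-06), the 8th largest log2 fold change of the genes tested. Without MFN2-R94Q replicate 2 the log2 change was 0.64 in MFN2-R94Q against nTg and 0.63 in MFN2-R94Q:MFN1 against MFN2-R94Q, and both passed.

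**Figure D2:**
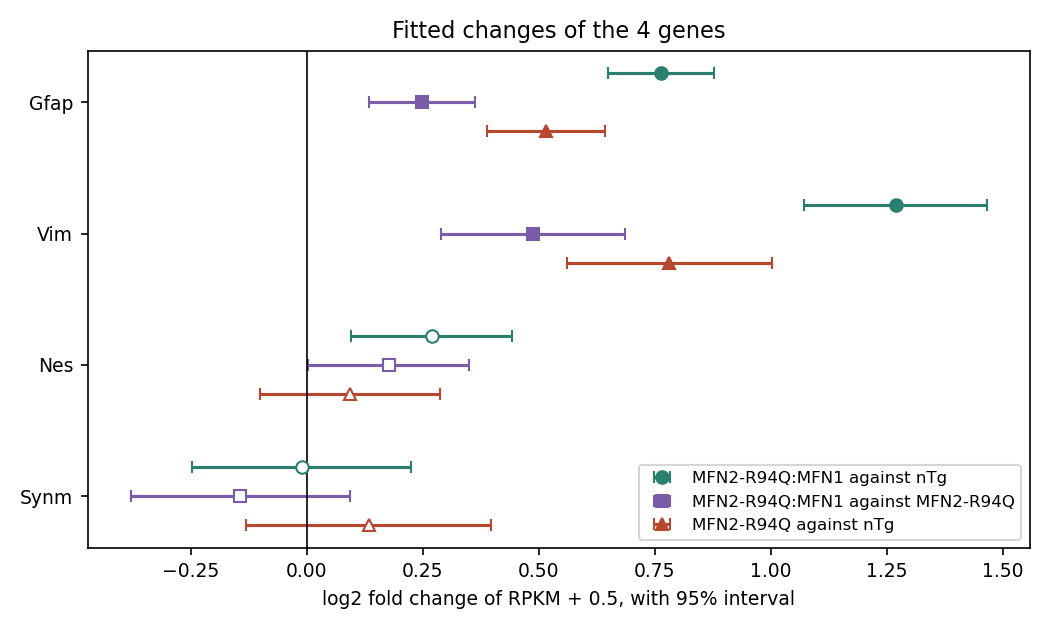
Log2 fold changes of the 4 genes with their 95% intervals from the limma fit, for each of the 3 comparisons; filled symbols passed the adjusted p threshold of 0.05 and open symbols did not. Gfap and Vim are filled in all 3 comparisons, with Vim farther from 0 each time, and the intervals of Synm include 0 in all 3.

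The relation of vimentin to GFAP transcripts was measured within each library as the ratio of their RPKM, which is per length. Vim was at 14.4%, 13.2%, 12.4%, 13.3% and 13.3% of the Gfap level in MFN2-R94Q:MFN1 replicates 1 to 5, at 10.6%, 12.7% and 10.6% in MFN2-R94Q, and at 9.47%, 10.1% and 8.36% in nTg. The MFN2-R94Q:MFN1 and MFN2-R94Q libraries all lay above the nTg libraries, while MFN2-R94Q:MFN1 replicate 3 lay below MFN2-R94Q replicate 2. The means were 13.3% ± 0.72 (SD, n = 5) in MFN2-R94Q:MFN1, 11.3% ± 1.21 (n = 3) in MFN2-R94Q and 9.30% ± 0.863 (n = 3) in nTg. In MFN2-R94Q:MFN1 against nTg the log2 ratio differed by 0.52 (exact two-sided permutation p = 0.0357, the smallest that 5 against 3 libraries allow). It differed by 0.24 in MFN2-R94Q:MFN1 against MFN2-R94Q (exact permutation p = 0.0714) and by 0.28 in MFN2-R94Q against nTg (exact permutation p = 0.1, the smallest for 3 against 3). Adjusted over the 3 comparisons, each p was 0.1. With these numbers of libraries the adjusted p cannot go below 0.0536, so the threshold of 0.05 could not be reached.

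**Figure D3:**
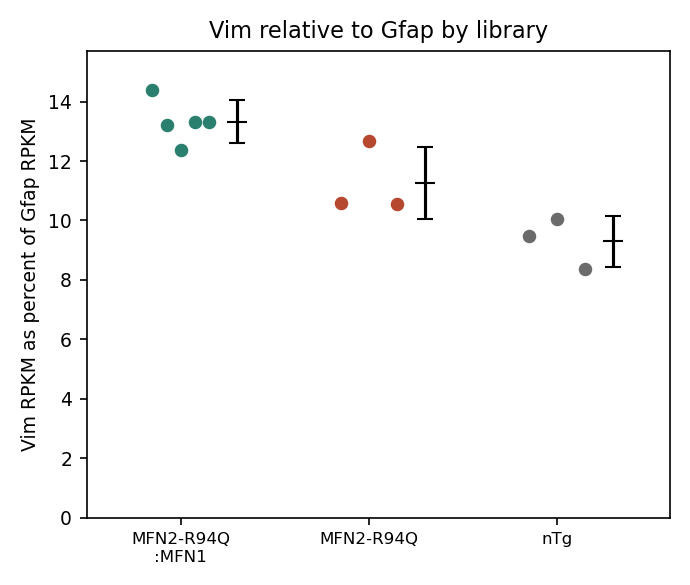
Vim as a percentage of Gfap RPKM in each of the 11 libraries, by genotype, with the group mean and SD beside the points. Values run from 12.4% to 14.4% in MFN2-R94Q:MFN1, 10.6% to 12.7% in MFN2-R94Q and 8.36% to 10.1% in nTg.

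Nes (chromosome 3, 87971078 to 87980451, plus strand) was expressed at a low level. It was at 3.66, 3.55, 3.07, 3.93 and 3.77 RPKM in MFN2-R94Q:MFN1 replicates 1 to 5, at 2.98, 3.57 and 2.83 RPKM in MFN2-R94Q replicates 1 to 3, and at 3.13, 2.77 and 2.78 RPKM in nTg replicates 1 to 3. The groups overlapped: 4 of 5 MFN2-R94Q:MFN1 libraries lay above all nTg libraries, and 3 of 5 lay above all MFN2-R94Q libraries. Its lowest MFN2-R94Q:MFN1 value was in replicate 3, the library with high meningeal and root markers. Mean levels were 3.60 ± 0.326 RPKM (SD, n = 5) in MFN2-R94Q:MFN1, 3.13 ± 0.390 RPKM (n = 3) in MFN2-R94Q and 2.89 ± 0.204 RPKM (n = 3) in nTg. Estimated reads on Nes numbered 583 to 1636 per library, a counting error of at most 4.14%. This estimate takes the annotated exon length of 6416 bases, and the length behind the RPKM is not given.

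Nes did not pass in any comparison. The 95% interval of its fold lay above 1 in both comparisons of MFN2-R94Q:MFN1, at 1.002 to 1.275 against MFN2-R94Q. The fold was 1.07 in MFN2-R94Q against nTg (95% interval 0.932 to 1.22; limma adjusted p = 0.496), 1.13 in MFN2-R94Q:MFN1 against MFN2-R94Q (log2 0.18, SE 0.080; limma adjusted p = 0.162) and 1.20 in MFN2-R94Q:MFN1 against nTg (1.07 to 1.36; limma adjusted p = 0.12). Without MFN2-R94Q replicate 2 the last of these passed, at a log2 change of 0.27 (limma adjusted p = 0.046). The estimate was the same and the shared spread was smaller.

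Synm (chromosome 7, 67730160 to 67759742, minus strand) was level across the genotypes apart from 1 library. It was at 13.7, 13.8, 14.7, 13.7 and 13.5 RPKM in MFN2-R94Q:MFN1 replicates 1 to 5, at 12.7, 20.6 and 13.8 RPKM in MFN2-R94Q replicates 1 to 3, and at 14.0, 14.0 and 13.8 RPKM in nTg replicates 1 to 3. MFN2-R94Q replicate 2 was the highest of all 11 libraries, and MFN2-R94Q replicate 1 the lowest, so that group spanned both others. Its coefficient of variation was 3.54% in MFN2-R94Q:MFN1, 27.2% in MFN2-R94Q and 0.863% in nTg. Synm shares 84 exon bases with Ttc23 and 426 with Gm45102, both on the opposite strand. Gm45102 has no row among those analysed here, and whether the counting used the strand is not given in the sources used here.

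Synm passed in no comparison. The fold was 1.10 in MFN2-R94Q against nTg (95% interval 0.913 to 1.32; limma adjusted p = 0.470), 0.905 in MFN2-R94Q:MFN1 against MFN2-R94Q (0.769 to 1.07; limma adjusted p = 0.407) and 0.993 in MFN2-R94Q:MFN1 against nTg (0.843 to 1.17; limma adjusted p = 0.975). The first 2 of these turn in sign without MFN2-R94Q replicate 2, at log2 changes of -0.07 and 0.06.

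Among the other intermediate filament genes, those of neurons were lower in MFN2-R94Q than in nTg. Of 31 listed, 30 were in the table and 17 could be tested; most keratins and Des, the muscle gene for desmin, were too low. In MFN2-R94Q against nTg, 6 of the 17 fell and none rose by limma (2 were higher at an unadjusted p under 0.05), with a median log2 change of -0.12, against 0.00 over all genes tested. The 6 were the neuronal filament genes Nefl, Nefm, Nefh, Ina and Prph, and Bfsp2, which encodes phakinin, a filament protein best known from the lens. In MFN2-R94Q:MFN1 against MFN2-R94Q, 5 rose and none fell (0 were lower at an unadjusted p under 0.05), with a median of 0.10, against 0.01 over all genes. In MFN2-R94Q:MFN1 against nTg none passed (2 were higher and 4 lower at an unadjusted p under 0.05), with a median of -0.01. Markers of other cells moved in MFN2-R94Q too, and their part in these differences was not tested. The 15 neuron markers summed to 2261 to 2321 RPKM in MFN2-R94Q:MFN1, 2217 to 2320 RPKM in MFN2-R94Q and 2340 to 2386 RPKM in nTg. In MFN2-R94Q against nTg 4 of them fell and 1 rose (median log2 change -0.04), or 2 fell without MFN2-R94Q replicate 2 or nTg replicate 1, 1 without nTg replicate 3 and 0 without nTg replicate 2. The 14 oligodendrocyte markers summed to 5048 to 5359, 4090 to 4608 and 4854 to 5302 RPKM in MFN2-R94Q:MFN1, MFN2-R94Q and nTg. In MFN2-R94Q against nTg 7 of them fell and 1 rose, or 4 fell without nTg replicate 1 or 2. The 12 oligodendrocyte precursor markers summed to 289.3 to 314.6, 239.6 to 273.3 and 304.0 to 322.9 RPKM in the same order of groups, and 5 fell and 2 rose in MFN2-R94Q against nTg, or 3 fell without nTg replicate 2 or 3.

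Prph, which encodes peripherin of motor and sensory neurons, averaged 36.9 ± 1.17 RPKM in MFN2-R94Q:MFN1 (SD, n = 5), 32.5 ± 1.14 RPKM in MFN2-R94Q (n = 3) and 38.2 ± 0.513 RPKM in nTg (n = 3). It fell in MFN2-R94Q to 0.852 of the nTg level (limma adjusted p = 0.00329), and it rose 1.13-fold in MFN2-R94Q:MFN1 against MFN2-R94Q (limma adjusted p = 0.00674). Bfsp2 averaged 8.20 ± 0.912 RPKM in MFN2-R94Q:MFN1, 4.16 ± 1.36 RPKM in MFN2-R94Q and 9.77 ± 1.57 RPKM in nTg, and the MFN2-R94Q mean was the lowest for this gene as for Prph. In MFN2-R94Q:MFN1 against MFN2-R94Q, 3 rather than 5 genes passed without MFN2-R94Q replicate 2 or without any 1 of MFN2-R94Q:MFN1 replicates 2, 4 and 5, and the calls lost were those of Ina and Nefm. The Nefm call (limma adjusted p = 0.0498) was lost in 9 of the 11 fits without 1 library, and that of Ina in 5. The lamin genes, which serve the nucleus, passed in no comparison; Lmna averaged 12.8, 13.4 and 12.0 RPKM in MFN2-R94Q:MFN1, MFN2-R94Q and nTg.

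**Figure D4:**
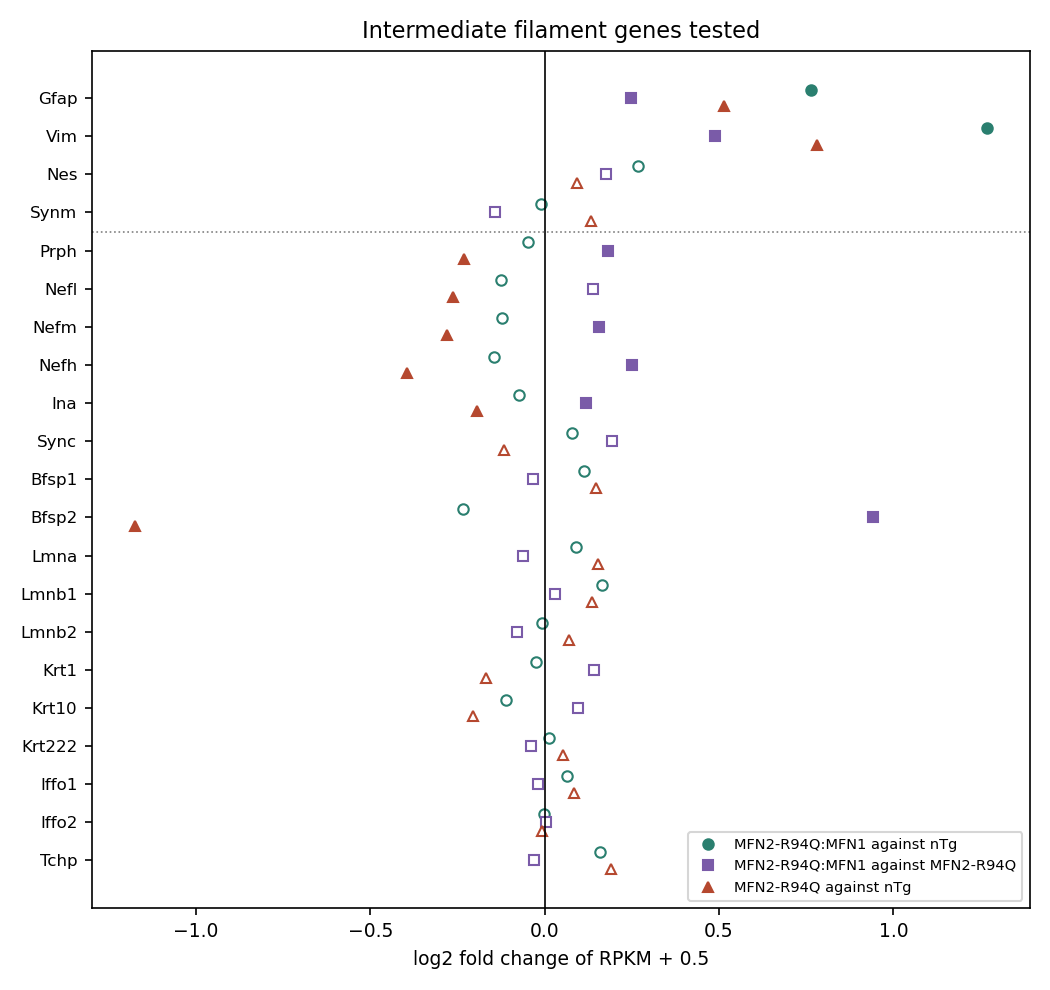
Log2 fold changes of the 4 glial filament genes and the 17 tested other filament genes in the 3 comparisons (a symbol shape and colour for each); filled symbols passed the adjusted p threshold of 0.05 and open symbols did not. Gfap and Vim lie to the positive side in all 3 comparisons, and the 6 other genes that passed in MFN2-R94Q against nTg lie to the negative side there.

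Genes whose products attach to filaments or organise the cell cortex changed in part. Of 29 tested linkers and partners, 4 rose and 1 fell in MFN2-R94Q against nTg, 8 rose and 1 fell in MFN2-R94Q:MFN1 against MFN2-R94Q, and 4 rose and none fell in MFN2-R94Q:MFN1 against nTg (8 were higher and 0 lower at an unadjusted p under 0.05). Over all genes tested, 7.5%, 9.55% and 2.09% rose and 10.4%, 3.33% and 0.223% fell in the same comparisons. The median log2 changes of the list were 0.02, 0.08 and 0.05, against 0.00, 0.01 and 0.01 over all genes. S100a6, a small calcium-binding protein gene, averaged 24.7 ± 2.09, 21.3 ± 1.53 and 12.5 ± 1.58 RPKM in MFN2-R94Q:MFN1, MFN2-R94Q and nTg. It rose 1.68-fold in MFN2-R94Q (limma adjusted p = 0.00133) and 1.95-fold in MFN2-R94Q:MFN1 (limma adjusted p = 2.11e-05), both against nTg. Tmsb10 went the other way in MFN2-R94Q, where it fell to 0.819 of the nTg level (limma adjusted p = 0.00474). It rose 1.21-fold in MFN2-R94Q:MFN1 against MFN2-R94Q (limma adjusted p = 0.00404). Its means were 76.8, 63.2 and 77.3 RPKM in MFN2-R94Q:MFN1, MFN2-R94Q and nTg. Ahnak, for a large scaffold protein of the membrane, rose 1.32-fold in MFN2-R94Q against nTg (limma adjusted p = 0.00815). Plec, for plectin, the main linker of intermediate filaments, averaged 17.0, 18.1 and 17.4 RPKM in MFN2-R94Q:MFN1, MFN2-R94Q and nTg and was not called in any comparison. Without MFN2-R94Q replicate 2, 7 of these genes rather than 4 rose in MFN2-R94Q:MFN1 against nTg, and without MFN2-R94Q:MFN1 replicate 2 or 5, 5 rather than 8 rose against MFN2-R94Q. In MFN2-R94Q against nTg 4 rather than 1 fell without MFN2-R94Q replicate 1, and 2 without MFN2-R94Q replicate 3.

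Of 27 kinases, proteases, deiminases and chaperones that act on filaments, 2 rose and 4 fell in MFN2-R94Q against nTg, and 4 rose and 1 fell in MFN2-R94Q:MFN1 against MFN2-R94Q. Over all genes tested, 7.5% rose and 10.4% fell in the first of these comparisons, and 9.55% rose and 3.33% fell in the second. The median log2 changes of the list were 0.03 and 0.01, against 0.00 and 0.01 over all genes. Cryab, for the small heat shock protein alpha-B-crystallin, which binds GFAP and vimentin filaments, averaged 143 ± 10.2 RPKM in MFN2-R94Q:MFN1 (SD, n = 5), 98.6 ± 19.7 RPKM in MFN2-R94Q (n = 3) and 157 ± 11.4 RPKM in nTg (n = 3). It fell in MFN2-R94Q to 0.621 of the nTg level (limma adjusted p = 0.00328) and rose 1.47-fold in MFN2-R94Q:MFN1 against MFN2-R94Q (limma adjusted p = 0.00599). Its lowest library was MFN2-R94Q replicate 2 at 79.2 RPKM, which was the highest of its group for Gfap and Vim. The oligodendrocyte markers were lowest in that library too, at a mean log2 difference of -0.55 from the nTg mean. Which cell type the Cryab change lies in was not tested. Padi2, which encodes the deiminase that citrullinates GFAP, rose 1.45-fold in MFN2-R94Q:MFN1 against MFN2-R94Q (limma adjusted p = 0.0123). In MFN2-R94Q:MFN1 against nTg the 2 genes that passed were Hspb8 and Hspb6, at 1.14-fold and 1.26-fold, and these calls were lost in 2 and 7 of the 11 fits without 1 library, nTg replicates 2 and 3 in both cases. Between MFN2-R94Q:MFN1 and MFN2-R94Q, 2 rather than 4 rose without MFN2-R94Q:MFN1 replicate 5, and none rather than 1 fell without MFN2-R94Q replicate 2. The genes concerned include Bag3, a co-chaperone gene, whose call was lost without either library, and the kinase gene Prkce, whose call was lost without MFN2-R94Q replicate 2. In MFN2-R94Q against nTg, 1 rather than 2 rose without MFN2-R94Q:MFN1 replicate 5, MFN2-R94Q replicate 2 or any 1 nTg library.

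Among 52 tested regulators of astrocyte filament genes, 6 rose and 3 fell in MFN2-R94Q against nTg, 7 rose and none fell in MFN2-R94Q:MFN1 against MFN2-R94Q (4 were lower at an unadjusted p under 0.05), and 5 rose and none fell in MFN2-R94Q:MFN1 against nTg (2 were lower at an unadjusted p under 0.05). Over all genes tested, 7.5%, 9.55% and 2.09% rose and 10.4%, 3.33% and 0.223% fell in the same comparisons. The median log2 changes of the list were 0.03, 0.06 and 0.06, against 0.00, 0.01 and 0.01 over all genes. Osmr, the oncostatin M receptor gene, was at 1.76 ± 0.108, 1.93 ± 0.373 and 1.09 ± 0.223 RPKM in MFN2-R94Q:MFN1, MFN2-R94Q and nTg, and rose 1.53-fold in MFN2-R94Q against nTg (limma adjusted p = 0.00463). The interleukin-6 receptor gene Il6ra rose 1.52-fold there (limma adjusted p = 0.0065). Jun fell there to 0.774 of the nTg level (limma adjusted p = 0.0131), a call lost without nTg replicate 2. Il6st, another receptor gene of the interleukin-6 family, had its lowest mean in MFN2-R94Q, at 22.25 RPKM against 24.28 RPKM in nTg. It rose 1.20-fold in MFN2-R94Q:MFN1 against MFN2-R94Q (limma adjusted p = 0.00495). Id3 was at 27.0 ± 1.80, 23.0 ± 1.40 and 19.7 ± 0.173 RPKM in MFN2-R94Q:MFN1, MFN2-R94Q and nTg. It rose 1.36-fold in MFN2-R94Q:MFN1 against nTg (limma adjusted p = 0.000414). Tgfbr1, a TGF-beta receptor gene, rose 1.25-fold in the same comparison (limma adjusted p = 0.00271). Stat3, the STAT factor best known for control of Gfap, was at 22.6 ± 0.735, 21.7 ± 1.12 and 20.3 ± 0.0524 RPKM in MFN2-R94Q:MFN1, MFN2-R94Q and nTg and did not pass; its smallest limma adjusted p was 0.0693, in MFN2-R94Q:MFN1 against nTg. Counts of regulators that rose in MFN2-R94Q against nTg ranged from 2 without nTg replicate 2 to 9, with 3 without MFN2-R94Q replicate 2 or nTg replicate 3. In MFN2-R94Q:MFN1 the count against MFN2-R94Q was 4 without MFN2-R94Q:MFN1 replicate 2 or 4 or MFN2-R94Q replicate 2, and the count against nTg was 3 without nTg replicate 2 or 3.

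The 26 markers of homeostatic astrocytes, genes for the transporters, channels and enzymes of resting cells, changed in both directions. Their summed level was 3406 to 3527 RPKM in MFN2-R94Q:MFN1, 3284 to 3554 RPKM in MFN2-R94Q and 3339 to 3440 RPKM in nTg, and the groups overlapped. In MFN2-R94Q against nTg 5 rose and 5 fell, in MFN2-R94Q:MFN1 against MFN2-R94Q 6 rose and 2 fell, and in MFN2-R94Q:MFN1 against nTg 1 rose and none fell (6 were higher and 1 lower at an unadjusted p under 0.05). The potassium channel gene Kcnj10 averaged 157 ± 4.09, 128 ± 8.29 and 152 ± 1.60 RPKM in MFN2-R94Q:MFN1, MFN2-R94Q and nTg, and the water channel gene Aqp4 93.6 ± 4.34, 64.4 ± 11.9 and 78.0 ± 5.10 RPKM in the same order of groups. Kcnj10 fell in MFN2-R94Q to 0.838 of the nTg level (limma adjusted p = 0.00354). Both genes rose in MFN2-R94Q:MFN1 against MFN2-R94Q, Aqp4 1.46-fold (limma adjusted p = 0.00348) and Kcnj10 1.23-fold (limma adjusted p = 0.00116). Other markers were highest in MFN2-R94Q. Agt, the angiotensinogen gene, averaged 112 ± 3.42, 163 ± 37.9 and 99.5 ± 5.47 RPKM in MFN2-R94Q:MFN1, MFN2-R94Q and nTg, and rose 1.61-fold in MFN2-R94Q against nTg (limma adjusted p = 0.00329). Gjb6, for the gap junction protein connexin, averaged 35.5 ± 2.53, 50.8 ± 8.6 and 39.1 ± 2.10 RPKM in the same order of groups, and fell in MFN2-R94Q:MFN1 to 0.706 of the MFN2-R94Q level (limma adjusted p = 0.0042). MFN2-R94Q replicate 2 was the highest library for both, and both calls held without it. The count of risers in MFN2-R94Q against nTg was 3 rather than 5 without MFN2-R94Q replicate 2 and 2 without nTg replicate 2, and that of fallers was 3 rather than 5 without nTg replicate 1 or 2. Without MFN2-R94Q replicate 1, 5 rather than 2 fell in MFN2-R94Q:MFN1 against MFN2-R94Q.

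Genes known from reactive astrocytes were mostly higher where they changed. Of 33 tested, 13 rose and 1 fell in MFN2-R94Q against nTg, 15 rose and 2 fell in MFN2-R94Q:MFN1 against MFN2-R94Q, and 18 rose and none fell in MFN2-R94Q:MFN1 against nTg (0 were lower at an unadjusted p under 0.05). The median log2 changes were 0.30, 0.22 and 0.43, against 0.00, 0.01 and 0.01 over all genes tested. Without 1 library, 9 to 14 rose and 1 to 3 fell in the first comparison. In the second 13 to 15 rose and 0 to 5 fell, and in the third 13 to 21 rose and 0 fell. Some genes of this list, S100a6 among them, are also in a list above. C4b, a complement gene, was at 54.9 ± 5.11 RPKM in MFN2-R94Q:MFN1 (SD, n = 5), 40.6 ± 4.90 RPKM in MFN2-R94Q (n = 3) and 20.7 ± 1.93 RPKM in nTg (n = 3). It rose 1.94-fold in MFN2-R94Q and 2.62-fold in MFN2-R94Q:MFN1, both against nTg (limma adjusted p = 0.000866 and 2.23e-06). The protease inhibitor gene Serpina3n rose 1.71-fold in MFN2-R94Q:MFN1 against nTg (limma adjusted p = 0.000157). Chil1 went the other way in MFN2-R94Q, where it fell to 0.761 of the nTg level (limma adjusted p = 0.00213). It rose 1.38-fold in MFN2-R94Q:MFN1 against MFN2-R94Q (limma adjusted p = 0.000253).

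Other cell types that make vimentin or nestin were followed through their markers, and their part in the Gfap and Vim differences was not tested. The 18 microglia markers summed to 392.9 to 440.2 RPKM in MFN2-R94Q:MFN1, 277.2 to 303.6 RPKM in MFN2-R94Q and 266.3 to 281.9 RPKM in nTg. In MFN2-R94Q:MFN1 against MFN2-R94Q 17 of them rose, and against nTg 12 rose; in MFN2-R94Q against nTg 2 rose and 1 fell, and 1 to 4 rose and 0 to 2 fell without 1 library. The 14 ependymal markers summed to 68.8 to 75.0, 50.5 to 55.0 and 63.3 to 67.7 RPKM in MFN2-R94Q:MFN1, MFN2-R94Q and nTg, so that they were lowest in MFN2-R94Q. The 16 endothelial markers summed to 168.1 to 183.7, 162.3 to 198.9 and 176.2 to 181.7 RPKM in MFN2-R94Q:MFN1, MFN2-R94Q and nTg, and 7 of 16 fell and 2 rose in MFN2-R94Q against nTg, or 2 fell without nTg replicate 2 or 3. The 14 pericyte and smooth muscle markers overlapped between MFN2-R94Q:MFN1 and nTg, at 86.0 to 94.4 and 79.3 to 86.2 RPKM, and lay at 71.3 to 83.4 RPKM in MFN2-R94Q. Meningeal markers, and by mean log2 difference Schwann cell and root markers, were above the other libraries in MFN2-R94Q:MFN1 replicate 3 alone. That library had the lowest Vim level of its group. None of these markers was at 0 in all 11 libraries.

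**Figure D5:**
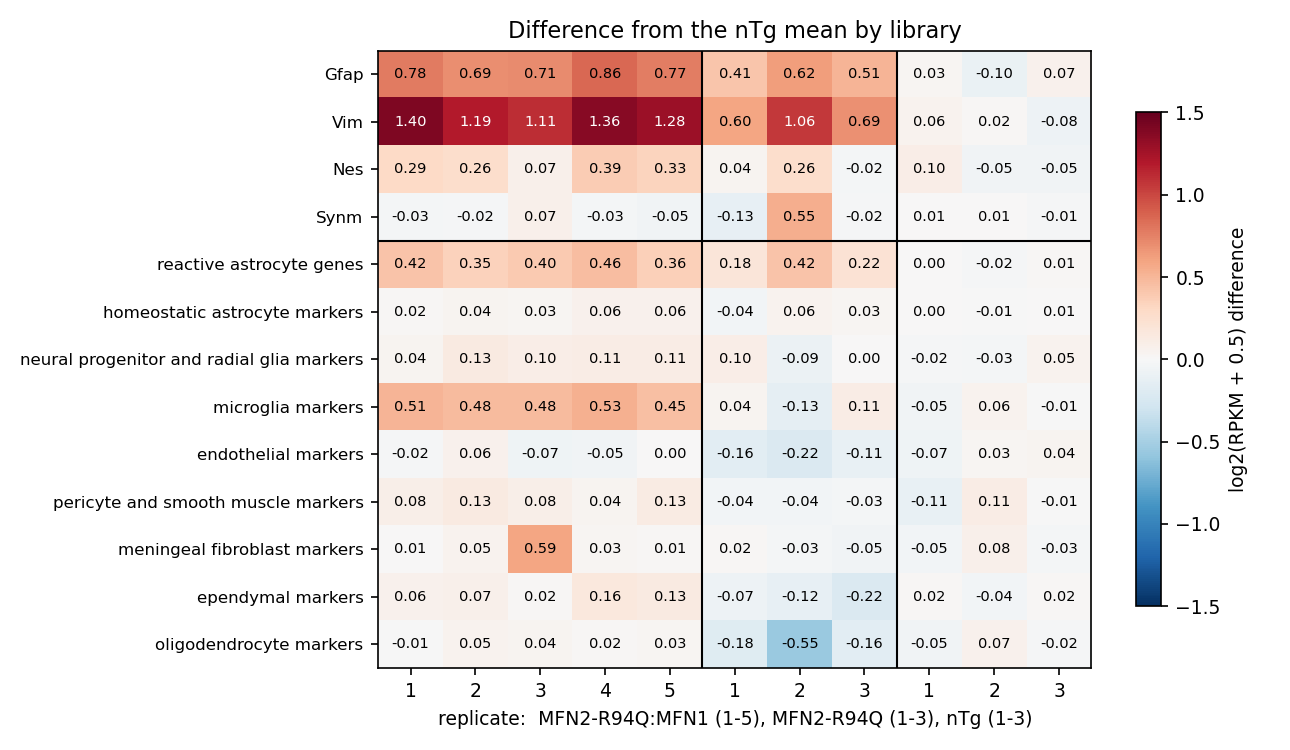
Difference of each library from the nTg mean on the log2(RPKM + 0.5) scale, for Gfap, Vim, Nes, Synm and the mean over 9 marker lists (columns are the 11 libraries by genotype; colour and printed value give the difference). Gfap and Vim are positive in all 8 libraries with MFN2-R94Q, the microglia markers lie between 0.45 and 0.53 in the 5 MFN2-R94Q:MFN1 libraries, and the homeostatic astrocyte markers stay within 0.065 of 0.

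The genes whose levels over the 11 libraries ran closest to each filament gene were found by the root mean square difference of their centred log2 profiles, among 11903 genes averaging at least 1 RPKM. This is a description, and the libraries share their group differences. For Gfap, whose own profile had a root mean square of 0.323, the nearest were Serpina3n (0.0773), Capg (0.103), Atf3 (0.109), Tagln2 (0.127) and Loxl2 (0.130). For Vim, with 0.540, they were C4b (0.139), Gpnmb (0.146), S100a4 (0.153), S100a6 (0.194) and Cd68 (0.210). Cd68 and Gpnmb are known from phagocytic microglia and macrophages, and Serpina3n and C4b from reactive astrocytes. For Nes, with 0.155, they were Pcdhgc5 (0.0757), Sugct (0.0760), Plxnb2 (0.0779), Clu (0.0785) and Grn (0.0795). The nearest to Synm, with 0.169, were Wbp1l (0.0583), Klhl36 (0.0654), Agfg2 (0.0667), Snx22 (0.0668) and Nde1 (0.0674), and its profile is set mainly by MFN2-R94Q replicate 2.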

How the data were processed

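RNA of the lumbar spinal cord was sequenced from 11 mice. Per the labels' protocols, RNA was extracted with Trizol and a column kit and TruSeq stranded mRNA libraries were built. The values the authors deposited are RPKM for 20888 rows in 11 columns. Per the submitters' processing notes, the tools were TopHat, with no version given, and Partek 7.17.0918, and the build was mm10. No source used here gives the annotation, gene lengths or strand setting. Of the names, 25 had become dates and none of these is used.

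Depth was recovered from RNA genes under 160 bases, whose low values are whole multiples of 1 read: 96.4% to 100% of values of up to 5 reads lay within 0.02 of a whole read. No count test was run, since gene lengths are not given. Reads on the 4 genes were only estimated, from the recovered depth and annotated exon lengths. The filter kept 14347 genes that reached 0.5 RPKM in 3 or more libraries. limma 3.58.1 (R 4.3.3; lmFit and contrasts.fit, then the trend option of eBayes) was fitted to log2(RPKM + 0.5) of the 11 libraries together, with genotype as the term; tests are two-sided. Fold changes are on that scale and understate low genes. The design text counts mice, so a library was taken as a mouse; replicate numbers follow record order. Libraries of a group differed by an SD of 0.126 to 0.238 (log2), so none was counted as deposited again.

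The members and gene lists were chosen with earlier results of these data known. From each list up to 4 genes past the threshold, by smallest p, were named, and any tested filament gene could be; for each member the 5 nearest profiles were named. Plec and Stat3 were named outside this rule after their values were seen. Alternatives covered pseudocount, filter, scaling, design, weights and each library left out. The limma step was tested on simulated data.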

Additional observations from a re-analysis of the deposited data

Results flagged for a closer look

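Synm in MFN2-R94Q:MFN1 replicate 3, at 14.7 RPKM, stood apart from the other 4 libraries of its group, at 13.5 to 13.8 RPKM: its gap to the nearest was 0.756 of the group's range, above the critical value of 0.71 for 5 libraries. It is the library with high meningeal and root markers, whose part in the value was not tested. Chance flags about 1 in 20 such groups. The rule was applied to each of the 4 genes and to the Vim to Gfap ratio, so 1 flag among them is less unusual than that.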

How the results depend on the processing

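Gfap and Vim passed in all 3 comparisons under all 20 alternatives, with log2 changes of 0.46 to 0.58 and 0.64 to 0.87 in MFN2-R94Q against nTg, 0.20 to 0.30 and 0.39 to 0.63 in MFN2-R94Q:MFN1 against MFN2-R94Q, and 0.72 to 0.80 and 1.23 to 1.31 in MFN2-R94Q:MFN1 against nTg. Without 1 library the number of the 4 genes past the threshold was 2 to 2, 2 to 2 and 2 to 3 in the same comparisons. With library weights, Nes passed in MFN2-R94Q:MFN1 against MFN2-R94Q (log2 0.28, limma adjusted p = 0.00369) and against nTg (0.26, limma adjusted p = 0.0485), and was at -0.019 in MFN2-R94Q against nTg, where Synm was at -0.0059. Without single libraries Nes ranged from 0.01 to 0.15, 0.12 to 0.26 and 0.24 to 0.32, and Synm from -0.07 to 0.26, -0.27 to 0.06 and -0.03 to -0.0010; without MFN2-R94Q replicate 2, Synm was at -0.073 in MFN2-R94Q against nTg and at 0.062 in MFN2-R94Q:MFN1 against MFN2-R94Q. The Vim to Gfap ratio in MFN2-R94Q:MFN1 against nTg ranged from 0.45 to 0.58 without 1 library, with exact permutation p of 0.0571 to 0.0952, where fewer libraries allow no smaller p. Fitting only the groups compared left 259 higher and 587 lower genes in MFN2-R94Q against nTg, against 1076 and 1485. Under quantile normalization the calls were 1267 higher and 1278 lower in that comparison, 1004 and 833 in MFN2-R94Q:MFN1 against MFN2-R94Q (1370 and 478 as deposited), and 213 and 44 in MFN2-R94Q:MFN1 against nTg (300 and 32). Nefl did not pass in MFN2-R94Q against nTg under quantile normalization (limma adjusted p = 0.081), nor Nefh in MFN2-R94Q:MFN1 against MFN2-R94Q without the filter (limma adjusted p = 0.0584). Where no cause is given, the cause was not tested. No paired analysis was run, because the groups hold different mice and the labels give no pairing between them. The 3 mice of MFN2-R94Q and of nTg limit the precision, counting error less so: by annotated exon lengths it was estimated at no more than 0.49% for Gfap and 1.59% for Vim.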
